A study of Mus musculus with 20 samples.

Results

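The genes described here are 37 imprinted mouse genes outside the *Snrpn*-*Ube3a* domain, measured by mRNA sequencing in cortex and hippocampus of mice that overexpress *Ube3a*. They were taken by gene symbol from the 47729 genes counted. They lie in 17 domains on 10 chromosomes, 29 of them code for protein, and 8 are noncoding RNA genes. The samples are 20 libraries from 10 pups of strain C57Bl/6J at postnatal day 7: mice 1 to 5 are WT, mice 6 to 10 are Ube3aOE, and each mouse gave 1 cortex and 1 hippocampus library. Ube3aOE pups carry a bacterial artificial chromosome transgene that holds *Ube3a* with its own flanking sequence on top of the endogenous gene, and WT pups lack it. The transgenic line from which the 5 Ube3aOE pups came is not given in the labels, and both genotypes hold female and male pups.

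An imprinted gene is transcribed mainly from the copy inherited from 1 parent. The choice is set by DNA methylation laid down in the egg or the sperm at an imprinting control region, which is then kept through cell division with the help of the zinc finger protein ZFP57. Control regions act on clusters, so maternally and paternally expressed genes lie side by side, often with a long noncoding RNA or a boundary element between them. Many imprinted genes set growth before and after birth, and a large group is active in the developing brain, where some are imprinted in neurons alone. By textbook assignment, 18 of the genes are expressed from the paternal copy and 15 from the maternal copy, and in 4 (*Grb10*, *Ddc*, *Gnas* and *Inpp5f*) the expressed copy depends on the tissue or transcript. The counts carry no information on the allele of origin, so every value is the sum of both copies.

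A library held between 14191093 and 16752326 reads counted on genes (median 16295195), 69.7% to 81.2% of its reads. Levels are given as counts per 1000000 (CPM), scaled with TMM factors. *Ube3a* itself was 69.7, 76.8, 57.3, 60.3 and 60.2 CPM in WT hippocampus and 143, 148, 185, 143 and 194 CPM in Ube3aOE hippocampus, and it ran from 54.0 to 69.6 CPM in WT cortex and from 129 to 181 CPM in Ube3aOE cortex. The genotypes did not overlap in either tissue, as the labels give them. Of the markers of the labelled tissues, 6 of 7 hippocampal genes were higher in hippocampus and 4 of 6 neocortical genes were lower there. Markers of neighbouring tissue were also present in some hippocampus libraries. The thalamic gene *Tcf7l2* or the striatal gene *Drd1* exceeded 10 CPM in 5 of them (WT mouse 4 and Ube3aOE mice 7, 8, 9 and 10), and these libraries, set apart after the values were seen, are called the 5 marked hippocampus libraries. In the hippocampus library of Ube3aOE mouse 9 the 7 striatal markers summed to 409 CPM, against 45.7 to 59.1 in the other 9. In the cortex library of Ube3aOE mouse 8 the 10 meningeal and fibroblast markers summed to 426 CPM, against 74.1 to 236 in the other 9. In dissected tissue fewer cells of a type cannot be told apart from less RNA per cell.

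The promoters of 5 of the genes on which the results turn come first, as RefSeq gives them on GRCm38.p6, 250 bases before and 50 after an annotated start. *Inpp5f* and *Zim1* are shown from the 3 of 33 tested members whose libraries did not overlap between the tissues, as was so for 9.29% of all genes. *Nnat* is shown because it had the highest level per kilobase of the 37, *Peg3* for the divergent start it shares with *Usp29*, and *Zdbf2* for its copies of TGCCGC, the core that ZFP57 reads when it is methylated. The core was searched on both strands (its reverse complement is GCGGCA), and capitals mark it. In *Peg3* the capitals mark instead the 163 bases between the starts of *Peg3* and *Usp29*, which lie on opposite strands, and the windows of the pair share 263 bases. The windows lie at chr7:128611115-128611414, plus strand (*Inpp5f*), chr7:6696383-6696682, minus strand (*Zim1*), chr2:157559828-157560127, plus strand (*Nnat*), chr7:6730370-6730669, minus strand (*Peg3*) and chr1:63200108-63200407, plus strand (*Zdbf2*).
Inpp5f: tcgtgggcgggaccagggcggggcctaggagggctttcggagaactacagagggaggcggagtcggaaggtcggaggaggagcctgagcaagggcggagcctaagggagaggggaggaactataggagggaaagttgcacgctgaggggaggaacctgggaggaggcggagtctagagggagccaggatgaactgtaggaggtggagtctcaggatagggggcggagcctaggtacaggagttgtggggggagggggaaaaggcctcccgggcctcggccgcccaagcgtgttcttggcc
Zim1: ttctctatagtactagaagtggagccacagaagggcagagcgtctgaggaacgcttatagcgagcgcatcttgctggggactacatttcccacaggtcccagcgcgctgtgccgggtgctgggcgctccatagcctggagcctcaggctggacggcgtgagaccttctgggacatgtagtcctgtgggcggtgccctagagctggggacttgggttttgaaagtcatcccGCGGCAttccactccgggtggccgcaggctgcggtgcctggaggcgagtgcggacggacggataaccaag
Nnat: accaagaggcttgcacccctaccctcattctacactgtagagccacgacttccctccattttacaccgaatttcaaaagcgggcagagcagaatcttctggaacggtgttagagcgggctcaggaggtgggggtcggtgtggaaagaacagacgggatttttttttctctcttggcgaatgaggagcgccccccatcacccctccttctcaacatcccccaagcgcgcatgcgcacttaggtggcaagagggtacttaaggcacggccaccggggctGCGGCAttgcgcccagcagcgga
Peg3: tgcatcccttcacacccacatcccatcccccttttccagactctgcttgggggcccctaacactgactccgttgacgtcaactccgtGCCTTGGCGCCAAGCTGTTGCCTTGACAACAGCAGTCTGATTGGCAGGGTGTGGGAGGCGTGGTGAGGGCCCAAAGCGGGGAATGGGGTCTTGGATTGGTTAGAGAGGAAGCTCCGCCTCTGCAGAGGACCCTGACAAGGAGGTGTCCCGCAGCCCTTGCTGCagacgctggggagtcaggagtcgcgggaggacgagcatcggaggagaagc
Zdbf2: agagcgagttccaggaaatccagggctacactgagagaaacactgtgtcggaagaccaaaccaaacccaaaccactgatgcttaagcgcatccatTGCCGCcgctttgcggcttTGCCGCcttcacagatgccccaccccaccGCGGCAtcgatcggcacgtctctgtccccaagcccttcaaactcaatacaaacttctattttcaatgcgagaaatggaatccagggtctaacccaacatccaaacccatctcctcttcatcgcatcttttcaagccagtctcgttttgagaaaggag
The *Zdbf2* window printed holds 3 copies of TGCCGC. It belongs to a start upstream of the counted gene (chr1:63273265-63314576), whose own RefSeq promoter at chr1:63273019-63273318 holds 0 copies and 38 CpG dinucleotides. Of the other windows printed, *Nnat* and *Zim1* hold 1 each, and *Inpp5f* and *Peg3* none. A promoter was found in the RefSeq table for 28 of the 37 genes. At least 1 promoter held TGCCGC in 11 of these 28 (39.3%), against 13.1% of all 27025 genes with a promoter in the table. Counted by promoter, since a gene can have several, the core stood in 12 of the 46 promoters of members (26.1%), against 11.6% of all 32851. The median number of CpG dinucleotides was 14.5 per promoter for the members and 7 for all promoters. TGCCGC stood in 5 of 12 paternally expressed, 5 of 12 maternally expressed and 1 of 4 tissue dependent genes with a promoter. A match is a description of the letters alone, and promoter CpG content differs between the sets compared.

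The members together took 0.529% to 0.685% of the counts of a library. Per kilobase of annotated exon, the order of levels was led by *Nnat*, which encodes neuronatin, a small membrane protein of the endoplasmic reticulum in developing neurons. It reached 702 ± 70.4 CPM per kilobase in hippocampus and 357 ± 141 in cortex (SD, n = 10 libraries a tissue). *Gnas*, which encodes the stimulatory G protein alpha subunit, followed at 155 ± 6.15 and 168 ± 8.28 CPM per kilobase, and did not overlap with *Nnat* in either tissue. The next genes in hippocampus were the noncoding RNA *Peg13* at 62.8 ± 9.23, the phosphoinositide phosphatase gene *Inpp5f* at 62.6 ± 5.20 and the cell cycle and apoptosis gene *Blcap* at 50.3 ± 5.11 CPM per kilobase. *Peg13* and *Inpp5f* differed by less than their spread, and in cortex *Inpp5f* stood at rank 7 with 38.8 ± 5.03 CPM per kilobase. At the other end, *Rtl1* stood at 0.0190 ± 0.0207 and *Kcnq1ot1* at 0.0165 ± 0.00623 CPM per kilobase in hippocampus, which differ by less than their spread. Exon lengths are sums over all annotated transcripts, so the levels per kilobase of a gene are lower bounds where a shorter form is the one transcribed. This holds for long noncoding RNAs and for *Gnas*, whose summed exons span 11186 bases, against 1829 for *Nnat*. Without division by length, *Gnas* stood above *Nnat*, with means of 1731 against 1285 CPM in hippocampus and 1881 against 653 CPM in cortex. The order of the pair thus rests on the exon lengths used.

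**Figure D1:**
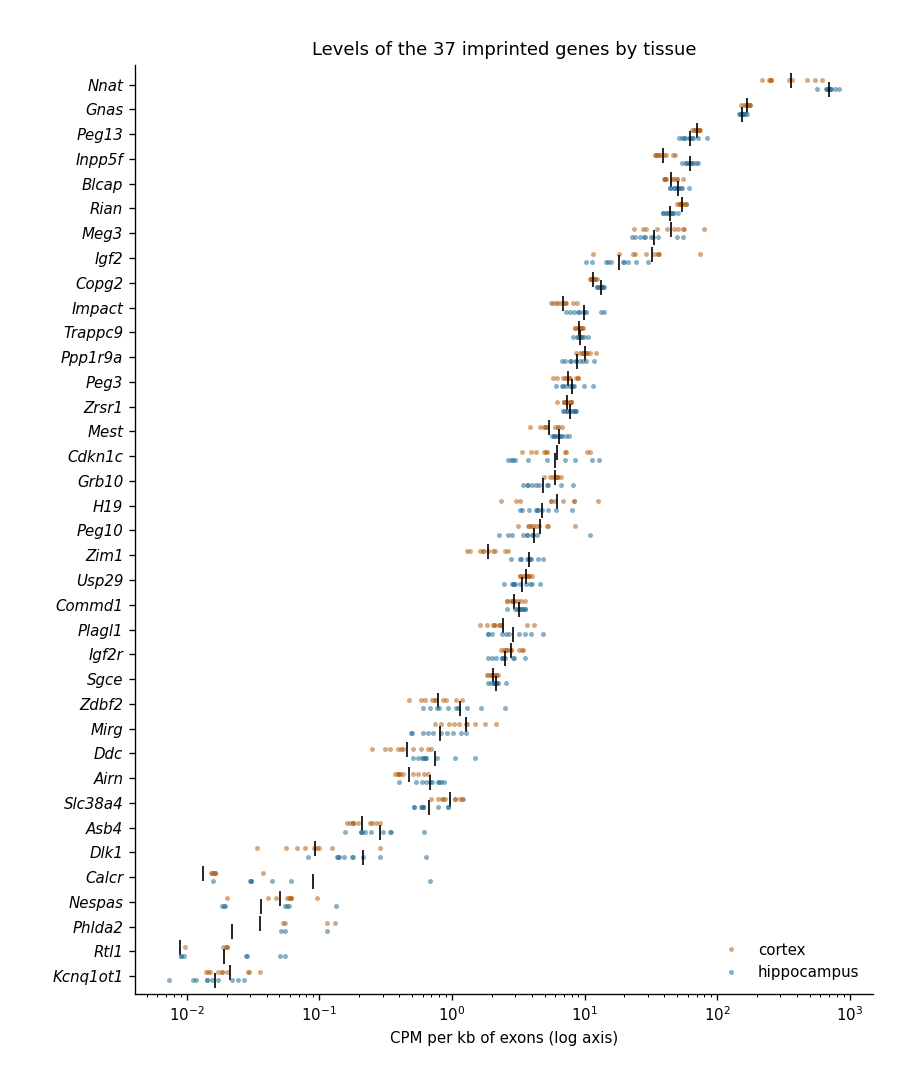
Level of each member in CPM per kilobase of annotated exon (log axis), with 1 point per library, cortex and hippocampus in different colours and a black tick at the mean of 10 libraries; libraries at 0 are not drawn. *Nnat* leads in both tissues, with means of 702 in hippocampus and 357 in cortex.

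Of the 37 members, 4 were too low to test, and the other 33 passed the filter on low counts in the comparison of tissues. *Rtl1*, a retrotransposon-derived gene of placenta and muscle, had at most 6 counts in a library, and *Phlda2*, a growth restraining gene of placenta, at most 2. *Nespas*, an antisense transcript of the *Gnas* locus, had at most 7 counts. In a library at 0 a gene may still have up to 3 counts, 0.179 to 0.211 CPM at these depths, counting error only. *Calcr*, the calcitonin receptor gene, had 42 counts (2.69 CPM) in the hippocampus library of Ube3aOE mouse 9 and at most 0.239 CPM in the other 9 hippocampus libraries.

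Between the tissues, *Nnat*, *Zim1* and *Inpp5f* were among the members higher in hippocampus, and *Igf2*, *Rian* and *Mirg* among those lower there. Of 33 tested members, 17 passed an adjusted *P* of 0.05 in edgeR's quasi-likelihood test with Benjamini-Hochberg adjustment over 15661 genes, and 9 of them were higher and 8 lower in hippocampus. Of all genes tested, 50.9% passed (25.3% higher and 25.6% lower), so the share of members called, 51.5%, lies near the background. The median absolute log2 fold change was 0.31 over the members and 0.20 over all genes, and the median signed change was 0.054 over the members and -0.0053 over all genes. An absolute log2 fold change above 0.5 with a pass of the test was found for 10 of 33 members, against 19.2% of all genes. The libraries of the tissues did not overlap for 3 members (*Zim1*, *Inpp5f* and *Copg2*), all higher in hippocampus, against 9.29% of all genes (5.64% higher and 3.65% lower). Paternally expressed genes counted 5 higher and 3 lower of 16 tested (median 0.09), maternally expressed genes 2 higher and 3 lower of 13 (median -0.16), and the 4 tissue dependent genes 2 higher and 2 lower. A fit that holds each mouse as a block, which the shared animals allow, gave 21 members (55.8% of all genes), including each of the 17. Without the 5 marked hippocampus libraries 13 of 33 members passed, 6 higher and 7 lower, against 35.7% of all genes in that fit. This left out *Dlk1*, *Ddc* and *Mest* of the genes higher in hippocampus and *Mirg*, *Igf2* and *Ppp1r9a* of those lower, and added *Cdkn1c* and *Usp29* as lower.

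**Figure D2:**
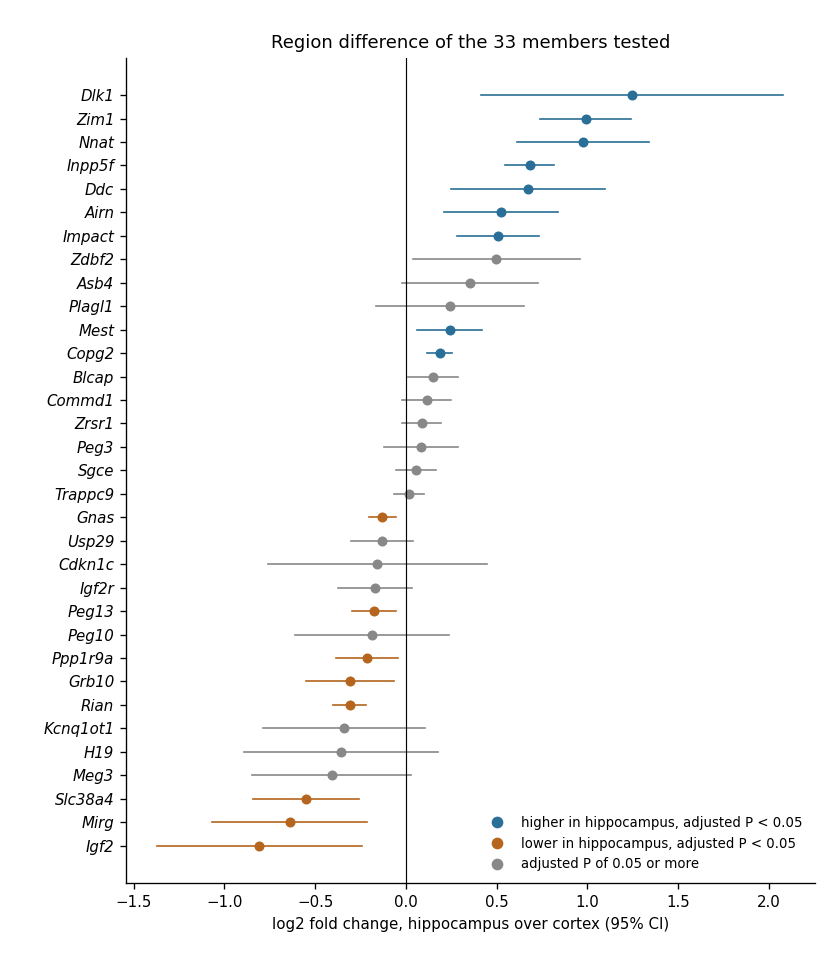
Log2 fold change of hippocampus over cortex (horizontal axis) for the 33 tested members, sorted, with 95% confidence intervals from the edgeR fit to 20 libraries. *Dlk1* stands highest at 1.25 with a wide interval, and *Igf2* lowest at -0.81; 9 intervals of called genes lie above and 8 below 0.

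The neuronatin domain showed the largest change in absolute level. *Nnat* (chr2:157560078-157562522, plus strand) lies inside *Blcap* (chr2:157556362-157571274, minus strand), and its paternal copy is the active one. *Nnat* was 1314, 1227, 1407, 1226 and 1216 CPM in WT hippocampus and 1279, 1306, 1306, 1528 and 1035 CPM in Ube3aOE hippocampus. In cortex it was 462, 872, 638, 469 and 455 CPM in WT mice and 453, 671, 1119, 995 and 400.3 CPM in Ube3aOE mice. All 10 mice had more *Nnat* RNA in hippocampus than in their own cortex, while the ranges overlapped at the cortex of Ube3aOE mouse 8 and the hippocampus of Ube3aOE mouse 10. The gene rose 1.97-fold in hippocampus (log2 fold change 0.98 ± 0.17 (SE), adjusted *P* = 1.46e-04, and 0.98 without the 5 marked libraries). *Blcap* ran from 134 to 186 CPM in hippocampus (median 152) and from 121 to 167 CPM in cortex (median 132), and did not pass the test (log2 fold change 0.15 ± 0.066 (SE), adjusted *P* = 0.0618), though it did in the blocked fit (adjusted *P* = 0.00965). The ratio of *Nnat* to *Blcap* lay between 6.65 and 9.57 in every hippocampus library and between 3.30 and 6.71 in every cortex library, so that the ranges overlapped slightly. Across the 10 cortex libraries, *Nnat* and *Blcap* rose and fell together (Pearson's *r* = 0.98, permutation *P* = 5.00e-05 and 4.67e-04 adjusted, Spearman's rho = 0.89, permutation *P* = 0.00113 and 0.00875 adjusted, n = 10 mice; *r* = 0.98 without the 2 mice farthest from the median), and in hippocampus the relation did not pass (*r* = 0.39, permutation *P* = 0.257, adjusted 0.4, and the difference was not tested). Within a genotype, 5 mice are too few for a correlation. The highest cortex values of *Nnat*, in mice 8, 9 and 2, stand beside the highest sum of hippocampal markers of the 10 cortex libraries in mouse 8 (461 CPM), a sum of 431 CPM in mouse 9 and the lowest sum in mouse 2 (295 CPM), and the part of neighbouring tissue in this was not tested.

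The *Peg3* domain on chromosome 7 holds *Zim1*, a maternally expressed zinc finger gene (chr7:6671269-6696450, minus strand), beside the paternally expressed pair *Peg3*, a zinc finger gene of growth and maternal behaviour, and *Usp29*, a ubiquitin-specific protease gene. *Zim1* ran from 22.6 to 39.4 CPM in hippocampus (median 30.7) and from 10.5 to 21.5 CPM in cortex (median 14.4). Every hippocampus library lay above every cortex library, and *Zim1* rose 1.99-fold (log2 fold change 0.99 ± 0.12 (SE), adjusted *P* = 1.19e-06, and 0.83 without the 5 marked libraries). *Peg3* ran from 81.2 to 153 CPM in hippocampus (median 104) and from 77.2 to 118 CPM in cortex (median 99.8), with no difference past the test (log2 fold change 0.085 ± 0.10, adjusted *P* = 0.49). *Usp29* ran from 44.4 to 83.0 CPM in hippocampus (median 56.4) and from 58.8 to 72.2 CPM in cortex (median 66.4), again without a pass (log2 fold change -0.13 ± 0.082, adjusted *P* = 0.194). The ratio of *Peg3* to *Zim1* was lower in hippocampus, 2.89 to 3.98, than in cortex, 4.54 to 8.78, with no overlap. *Peg3* and *Usp29*, which share the start region printed above, moved together across mice in cortex (Pearson's *r* = 0.89, permutation *P* = 6.70e-04 and 0.00469 adjusted, Spearman's rho = 0.89, permutation *P* = 0.00125 and 0.00875 adjusted, n = 10 mice; *r* = 0.86 without the 2 mice farthest from the median). In hippocampus the relation passed by *r* and not by rank (*r* = 0.81 and rho = 0.76, permutation *P* = 0.00389 and 0.015, adjusted 0.0156 and 0.07, n = 10; *r* = 0.71 without the 2 farthest mice). Exons of *Usp29* overlap those of *Zim3* on the opposite strand by 2582 bases, so reads there may be shared if strand was not used in counting.

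*Inpp5f*, a phosphatase gene with a paternally expressed brain transcript from an internal start, had the smallest *P* of the members. It was 524, 487, 531, 509 and 483 CPM in WT hippocampus and 450.3, 512, 575, 594 and 546 CPM in Ube3aOE hippocampus. In cortex the values were 290.2, 329.9, 344, 307 and 290.1 CPM in WT mice and 281, 303, 401, 386 and 297 CPM in Ube3aOE mice. The lowest hippocampus library stood above the highest cortex library, and the gene rose 1.60-fold (log2 fold change 0.68 ± 0.065 (SE), adjusted *P* = 3.31e-08, and 0.56 without the 5 marked libraries). The counts are per gene, so the imprinted transcript and the biallelic ones are added together. The promoter printed above is that of the RefSeq start at the 5′ end of the gene, not of the internal transcript.

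**Figure D3:**
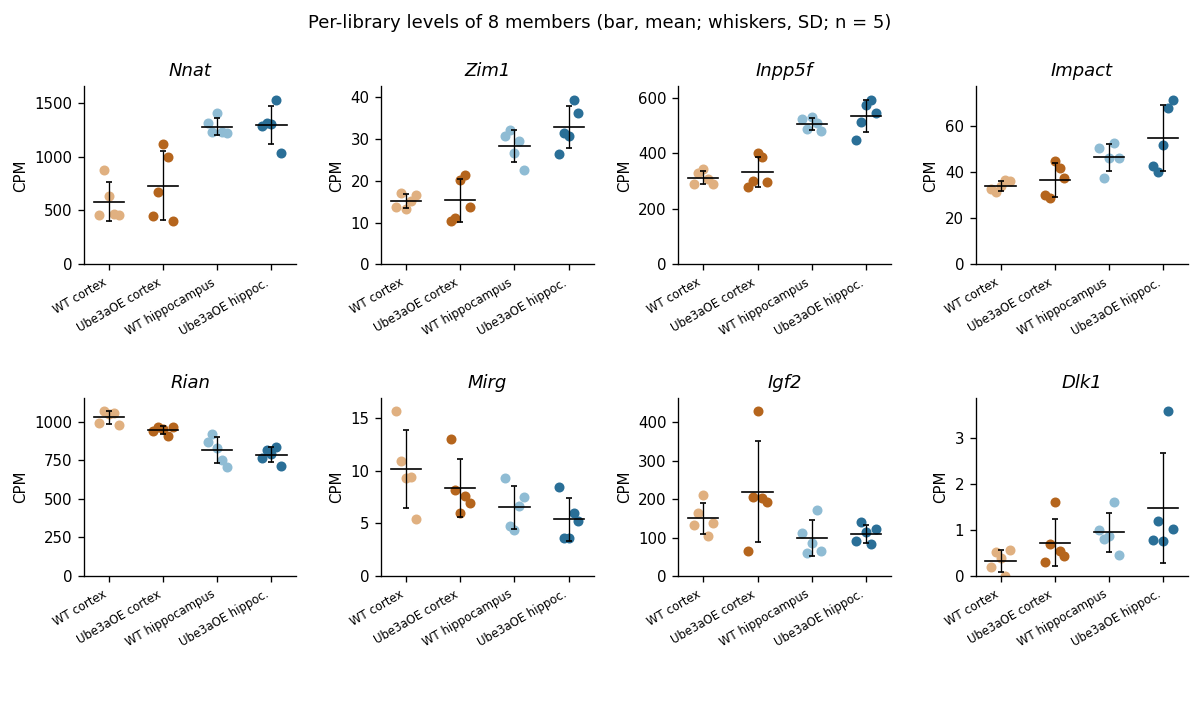
CPM of 8 members (*Nnat*, *Zim1*, *Inpp5f*, *Impact*, *Rian*, *Mirg*, *Igf2* and *Dlk1*) in each of the 20 libraries by genotype and tissue, 1 point per mouse, with the mean and SD of 5 mice. *Zim1* and *Inpp5f* hold hippocampus points above all cortex points, whereas *Igf2* and *Dlk1* are spread by single libraries such as the cortex of Ube3aOE mouse 8 (428 CPM of *Igf2*) and the hippocampus of Ube3aOE mouse 9 (3.59 CPM of *Dlk1*).

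The *Dlk1*-*Dio3* domain on chromosome 12 pairs paternally expressed coding genes with maternally expressed noncoding RNAs that carry small RNAs in their span. *Dlk1* (chr12:109452823-109463336, plus strand) encodes a Notch pathway ligand of progenitor cells, *Meg3* (chr12:109541001-109571726), *Rian* (chr12:109603940-109661716) and *Mirg* (chr12:109729764-109749460) are noncoding and lie on the plus strand. The RefSeq table places 14 microRNA hairpins with 26 mature forms inside *Mirg*, 3 hairpins with 6 mature forms inside *Rian* and 1 hairpin with 3 mature forms inside *Meg3*. A further 6 hairpins lie antisense to *Rtl1*. Mature microRNAs are not measured by an mRNA library, so what was counted is the host transcript. The mature sequences below are those of the domain's microRNAs best known in neurons and of the pair inside *Mirg* that share a seed. Capitals mark the seed, bases 2 to 8.
miR-453: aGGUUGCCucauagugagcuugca
miR-496a-5p: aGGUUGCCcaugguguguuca
miR-134-5p: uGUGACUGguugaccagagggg
miR-382-5p: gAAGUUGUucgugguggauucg
miR-410-3p: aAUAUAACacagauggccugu
miR-154-5p: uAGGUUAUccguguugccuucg
miR-127-3p: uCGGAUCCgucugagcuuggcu
miR-433-3p: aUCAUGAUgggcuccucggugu
miR-136-5p: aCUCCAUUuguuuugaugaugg
The first of these and miR-496a-5p share the seed GGUUGCC, and no other seed is shared among those printed.

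Of the host transcripts, *Rian* was the steadiest and *Meg3* and *Mirg* the most variable. *Rian* was 868, 919, 829, 753 and 709 CPM in WT hippocampus and 764, 818, 793, 838 and 712 CPM in Ube3aOE hippocampus, and it ran from 709 to 919 CPM in hippocampus (median 805) and from 904 to 1067 CPM in cortex (median 972). It was lower in hippocampus than in cortex in 10 of 10 mice (log2 fold change -0.31 ± 0.044 (SE), adjusted *P* = 6.41e-06), although the ranges overlapped at 1 end. *Mirg* ran from 3.57 to 9.35 CPM in hippocampus (median 5.65) and from 5.39 to 15.7 CPM in cortex (median 8.78), lower in hippocampus in 9 of 10 mice (log2 fold change -0.64 ± 0.20 (SE), adjusted *P* = 0.0133). Without the 5 marked hippocampus libraries the log2 fold change was -0.31 for *Mirg* and -0.31 for *Rian*. *Meg3* ran from 414 to 1002 CPM in hippocampus (median 544) and from 423 to 1439.9 CPM in cortex (median 803) and did not pass (log2 fold change -0.41 ± 0.21 (SE), adjusted *P* = 0.113), though it did in the blocked fit (adjusted *P* = 0.0358).

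*Meg3* varied between mice of 1 genotype by more than 2-fold, and its neighbours did not all follow. In WT cortex it was 1439.9, 1000.3, 921, 851 and 530.0 CPM and in Ube3aOE cortex 1022, 755, 502, 633 and 423 CPM, while *Mirg* was 15.7, 10.9, 9.34, 9.44 and 5.39 and 13.1, 8.23, 6.03, 7.61 and 6.94 CPM in the same libraries, in the order of the mice. High *Meg3* went with high *Mirg* in cortex (Pearson's *r* = 0.93, permutation *P* = 6.00e-05 and 1.20e-04 adjusted, Spearman's rho = 0.94, permutation *P* = 1.60e-04 and 3.20e-04 adjusted, n = 10 mice; *r* = 0.96 without the 2 mice farthest from the median; 4 relations with *Meg3* were chosen after the values were seen and carry their own adjustment). The relation was found in hippocampus too (*r* = 0.86 and rho = 0.83, permutation *P* = 0.00106 and 0.00474, adjusted 0.00106 and 0.00474, n = 10; *r* = 0.70 without the 2 farthest mice). *Meg3* and *Rian*, which lie next to each other, gave *r* = 0.40 in cortex and -0.13 in hippocampus (permutation *P* = 0.245 and 0.725, adjusted 0.4 and 0.765, n = 10). *Miat*, a nuclear noncoding RNA outside the imprinted domains, moved with *Meg3* across mice, in cortex (*r* = 0.99 and rho = 0.99, permutation *P* = 1.00e-05 and 1.00e-05, adjusted 4.00e-05 and 4.00e-05, n = 10; *r* = 0.98 without the 2 farthest mice; 1.00e-05 is the smallest *P* that 100000 resamples can give) and in hippocampus (*r* = 0.95 and rho = 0.89, permutation *P* = 2.30e-04 and 0.00126, adjusted 3.07e-04 and 0.00168, n = 10; *r* = 0.77 without the 2 farthest mice). *Miat* was 585, 423, 352, 379 and 212 CPM in WT cortex and 436, 317, 177, 262 and 160.4 CPM in Ube3aOE cortex. Mouse 1 was highest and mice 5, 8 and 10 were among the lowest for *Meg3* and *Miat* in cortex, and mouse 1 was highest for both in hippocampus. The share of nuclear RNA in a library was not measured, and its part was not tested.

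**Figure D4:**
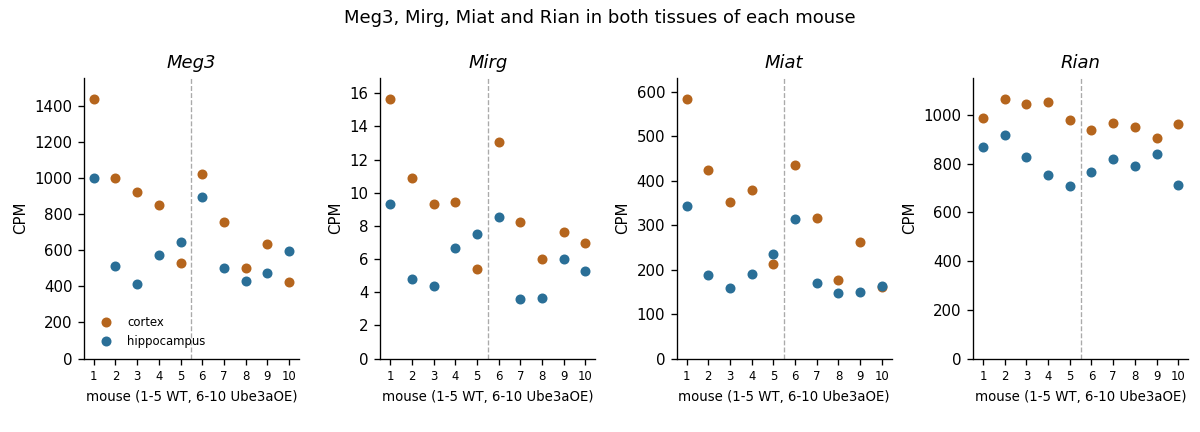
CPM of *Meg3*, *Mirg*, *Miat* and *Rian* by mouse (horizontal axis, mice 1 to 5 WT and 6 to 10 Ube3aOE), with orange points for cortex and blue points for hippocampus. *Meg3*, *Mirg* and *Miat* peak in mouse 1 in cortex (1439.9 CPM of *Meg3*), whereas *Rian* runs level between 709 and 1067 CPM.

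*Dlk1* had the largest fold change of the members and among the fewest counts. It was 1.00, 0.800, 0.865, 1.61 and 0.464 CPM in WT hippocampus and 0.779, 1.21, 0.773, 3.59 and 1.02 CPM in Ube3aOE hippocampus. In cortex it was 0.191, 0.520, 0.386, 0 and 0.558 CPM in WT mice and 0.315, 0.707, 1.61, 0.548 and 0.442 CPM in Ube3aOE mice. The tissues overlapped, 8 of 10 mice were higher in hippocampus, and the change was 2.37-fold (log2 fold change 1.25 ± 0.40 (SE), adjusted *P* = 0.0133). *Dlk1* passed the filter on low counts among the hippocampus libraries, but not among the cortex libraries or in WT mice alone. Its entry to the tissue test thus rested mainly on the tissue where it was higher, which limits what its pass shows. The hippocampus of Ube3aOE mouse 9 stood apart at 3.59 CPM, without which the log2 fold change was 0.94 (adjusted *P* = 0.0294). Without the 5 marked hippocampus libraries it was 0.66.

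The insulin-like growth factor axis spans several domains. *Igf2* (chr7:142650766-142666816), the paternally expressed growth factor, and *H19* (chr7:142575529-142578143), the maternally expressed noncoding RNA beside it, share enhancers across a CTCF boundary. *Igf2r* encodes the receptor that clears IGF2, *Airn* is the paternal antisense RNA that silences it, and *Grb10* encodes an adaptor that restrains insulin and IGF receptors, paternally expressed in neurons. *Igf2* was 111, 58.7, 86.1, 173 and 64.8 CPM in WT hippocampus and 89.8, 141, 114, 83.0 and 121 CPM in Ube3aOE hippocampus. In cortex it was 133, 165, 210.1, 104 and 137 CPM in WT mice and 66.1, 204, 428, 203 and 192 CPM in Ube3aOE mice. The cortex of Ube3aOE mouse 8 was far above the others, the tissues overlapped, and *Igf2* was lower in hippocampus in 8 of 10 mice (log2 fold change -0.81 ± 0.27 (SE), adjusted *P* = 0.0181). Without the cortex library of mouse 8 the log2 fold change was -0.61 (adjusted *P* = 0.0401), and without the 5 marked hippocampus libraries it was -1.10. The call was lost with both libraries of mouse 2, 3 or 8 left out (adjusted *P* = 0.0524, 0.057 and 0.0526).

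*Igf2* followed the meningeal and fibroblast markers from mouse to mouse. The relation with the mean log2 level of these 10 genes was close in cortex (*r* = 0.97 and rho = 0.89, permutation *P* = 4.00e-05 and 0.00102, adjusted 4.67e-04 and 0.00875, n = 10; *r* = 0.94 without the 2 farthest mice). It was also close in hippocampus (*r* = 0.96 and rho = 0.92, permutation *P* = 5.00e-05 and 5.30e-04, adjusted 4.67e-04 and 0.00875, n = 10; *r* = 0.92 without the 2 farthest mice). With the 12 choroid plexus markers the relation of *Igf2* did not pass the adjustment in cortex (*r* = 0.68 and rho = 0.61, permutation *P* = 0.029 and 0.0666, adjusted 0.0922 and 0.186, n = 10; *r* = 0.28 without the 2 farthest mice). In hippocampus it did not pass either (*r* = 0.25, permutation *P* = 0.488, adjusted 0.637). The choroid plexus markers summed to 1993 CPM in the hippocampus of Ube3aOE mouse 7 and to at most 366 CPM in the other libraries. The summed meningeal markers lay between 74.1 and 426 CPM in cortex and between 73.4 and 256 CPM in hippocampus, and 5 of the 10 were called lower in hippocampus and none higher, the direction of *Igf2* between the tissues. Their part in the tissue difference of *Igf2* was not tested. *H19* ran from 7.95 to 19.9 CPM in hippocampus (median 10.9) and from 5.74 to 31.0 CPM in cortex (median 14.3) with no pass (log2 fold change -0.36 ± 0.25, adjusted *P* = 0.254), and it followed the meningeal markers in cortex (*r* = 0.86 and rho = 0.88, permutation *P* = 0.00157 and 0.00159, adjusted 0.00879 and 0.0089, n = 10; *r* = 0.74 without the 2 farthest mice). In hippocampus the same relation did not pass (*r* = 0.45, permutation *P* = 0.19, adjusted 0.397). *Igf2* and *H19* themselves moved together in cortex by *r* but not by rank (*r* = 0.81 and rho = 0.72, permutation *P* = 0.00369 and 0.0227, adjusted 0.0156 and 0.0909, n = 10; *r* = 0.68 without the 2 farthest mice). Of 28 relations computed, 7 passed the adjustment by *r* and 5 of them by rho as well, and each of the 7 is among those given here and above.

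*Airn* ran from 1.44 to 3.15 CPM in hippocampus (median 2.50) and from 1.34 to 2.36 CPM in cortex (median 1.50) and rose in hippocampus (log2 fold change 0.52 ± 0.15 (SE), adjusted *P* = 0.00667), in 9 of 10 mice, and stood at 0.66 without the 5 marked libraries. *Igf2r* ran from 17.3 to 33.3 CPM in hippocampus (median 22.4) and from 21.7 to 32.2 CPM in cortex (median 25.1) and did not pass (log2 fold change -0.17 ± 0.10, adjusted *P* = 0.158; adjusted *P* = 0.0259 in the blocked fit), and its sign turned to 0.074 without the 5 marked libraries. *Grb10* ran from 31.5 to 74.9 CPM in hippocampus (median 40.0) and from 45.1 to 60.6 CPM in cortex (median 55.2), lower in hippocampus in 8 of 10 mice (log2 fold change -0.31 ± 0.12 (SE), adjusted *P* = 0.0334), and the 2 mice with more *Grb10* in hippocampus were Ube3aOE mice 9 (60.5 CPM) and 10 (74.9 CPM), both among the 5 marked libraries. Without those 5 libraries *Grb10* in hippocampus lay below cortex by 0.66 on the log2 scale. The call of *Grb10* was lost without mouse 1, 3, 5, 6, 7 or 8 (adjusted *P* = 0.0806, 0.0766, 0.0918, 0.0621, 0.0759 and 0.079) and with no filter on low counts (adjusted *P* = 0.0778). *Ddc*, its neighbour, encodes the decarboxylase that makes dopamine and serotonin. *Ddc* ran from 2.28 to 6.61 CPM in hippocampus (median 2.78) and from 1.11 to 3.10 CPM in cortex (median 1.88), was higher in hippocampus in 10 of 10 mice and rose 1.60-fold (log2 fold change 0.67 ± 0.20 (SE), adjusted *P* = 0.00883). Without the 5 marked libraries *Ddc* stood at 0.27, and its highest hippocampus value, 6.61 CPM, came from Ube3aOE mouse 9.

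In the *Kcnq1* domain, *Cdkn1c* encodes the cell cycle inhibitor p57, maternally expressed, and *Kcnq1ot1* is the paternal noncoding RNA that silences the domain. *Cdkn1c* was 5.41, 7.57, 6.05, 14.6 and 5.69 CPM in WT hippocampus and 5.93, 23.1, 10.6, 17.3 and 26.0 CPM in Ube3aOE hippocampus, and it ran from 6.88 to 22.3 CPM in cortex. The test of tissues was not passed (log2 fold change -0.16 ± 0.29, adjusted *P* = 0.678). The 5 marked hippocampus libraries held 10.6 to 26.0 CPM of *Cdkn1c* and the other 5 held 5.41 to 7.57, without overlap. This held for 1 of the 33 tested members, against 3.17% of all genes, in a split made after the values were seen. With the 5 marked libraries left out, the log2 fold change of *Cdkn1c* was -1.07. *Kcnq1ot1* ran from 0.679 to 2.53 CPM in hippocampus (median 1.38) and from 1.30 to 3.34 CPM in cortex (median 1.72) and did not pass (log2 fold change -0.34 ± 0.21, adjusted *P* = 0.192).

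In the *Peg10* domain, *Peg10* is a retrotransposon-derived gene, *Sgce* encodes epsilon-sarcoglycan, the gene of myoclonus-dystonia, *Ppp1r9a* encodes neurabin of dendritic spines, and *Asb4* is a hypothalamic SOCS box gene. *Ppp1r9a* ran from 97.4 to 172 CPM in hippocampus (median 124) and from 126 to 177 CPM in cortex (median 146) and was lower in hippocampus (log2 fold change -0.21 ± 0.082 (SE), adjusted *P* = 0.0343), in 8 of 10 mice. This call was lost without mouse 1, 3, 4, 5, 6, 7 or 10 (adjusted *P* = 0.0596, 0.0689, 0.085, 0.0876, 0.0729, 0.0597 and 0.111) and with no filter on low counts (adjusted *P* = 0.0793). *Sgce* ran from 20.0 to 27.0 CPM in hippocampus (median 22.5) and from 19.6 to 23.7 CPM in cortex (median 21.6). *Peg10* (log2 fold change -0.19 ± 0.20, adjusted *P* = 0.46), *Sgce* (log2 fold change 0.054 ± 0.053, adjusted *P* = 0.411) and *Asb4* (log2 fold change 0.35 ± 0.18, adjusted *P* = 0.107) did not pass. *Peg10* had 1 high library in each tissue, and without the hippocampus of mouse 9 it was lower in hippocampus (-0.40, adjusted *P* = 0.0145).

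*Copg2*, a coat protein gene of vesicle transport, ran from 63.3 to 72.2 CPM in hippocampus (median 68.0) and from 56.6 to 63.2 CPM in cortex (median 58.9). Its libraries did not overlap between tissues, and the rise was small (log2 fold change 0.19 ± 0.033 (SE), adjusted *P* = 9.15e-05, and 0.16 without the 5 marked libraries). *Mest*, a hydrolase gene of growth whose exons overlap those of *Copg2* by 912 bases on the opposite strand, ran from 22.3 to 30.2 CPM in hippocampus (median 25.1) and from 15.4 to 26.8 CPM in cortex (median 20.4) and rose (log2 fold change 0.24 ± 0.086 (SE), adjusted *P* = 0.0226). The call of *Mest* was lost without mouse 1 or 7 (adjusted *P* = 0.0558 and 0.083), and its log2 fold change was 0.21 without the 5 marked libraries. *Impact*, an inhibitor of the GCN2 stress kinase in neurons, ran from 37.4 to 71.5 CPM in hippocampus (median 48.2) and from 28.6 to 44.9 CPM in cortex (median 35.0) and rose in 10 of 10 mice (log2 fold change 0.51 ± 0.11 (SE), adjusted *P* = 6.59e-04). Without the 5 marked libraries the log2 fold change of *Impact* was 0.31. *Gnas* ran from 1646 to 1861 CPM in hippocampus (median 1726) and from 1683 to 1972 CPM in cortex (median 1896) and was slightly lower in hippocampus (log2 fold change -0.13 ± 0.036 (SE), adjusted *P* = 0.00538, and -0.15 without the 5 marked libraries), summed over its biallelic and imprinted transcripts. *Slc38a4*, an amino acid transporter gene, ran from 2.22 to 4.00 CPM in hippocampus (median 2.56) and from 2.96 to 5.19 CPM in cortex (median 4.14) and was lower (log2 fold change -0.55 ± 0.14 (SE), adjusted *P* = 0.00251, and -0.74 without the 5 marked libraries).

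*Peg13*, a paternally expressed noncoding RNA of the brain inside an intron of *Trappc9*, ran from 243 to 393 CPM in hippocampus (median 293) and from 307 to 351 CPM in cortex (median 332) and was lower (log2 fold change -0.17 ± 0.059 (SE), adjusted *P* = 0.0178). Its call was lost without mouse 1 or 6 (adjusted *P* = 0.0615 and 0.0532), and without the 5 marked libraries its log2 fold change was -0.31. *Trappc9*, a trafficking complex gene maternally biased in brain, ran from 65.1 to 83.5 CPM in hippocampus (median 72.8) and from 66.7 to 76.8 CPM in cortex (median 72.9) and did not pass (log2 fold change 0.016 ± 0.040, adjusted *P* = 0.764). *Zdbf2*, a growth and feeding gene, ran from 7.72 to 31.6 CPM in hippocampus (median 12.7) and from 6.06 to 15.0 CPM in cortex (median 9.44). Its adjusted *P* was 0.0658 (log2 fold change 0.50), 0.0294 in the blocked fit and 0.14 without the hippocampus of mouse 9. *Plagl1* ran from 14.7 to 37.8 CPM in hippocampus (median 20.4) and from 12.8 to 32.2 CPM in cortex (median 17.1). *Plagl1*, a zinc finger regulator of growth (log2 fold change 0.24 ± 0.19, adjusted *P* = 0.31), the splicing factor gene *Zrsr1* (log2 fold change 0.087 ± 0.051, adjusted *P* = 0.166) and its host *Commd1*, a copper and endosome gene (log2 fold change 0.12 ± 0.065, adjusted *P* = 0.145), did not pass. *Zrsr1* and *Commd1* overlap on opposite strands by 412 exonic bases, and their medians in hippocampus were 35.4 and 19.4 CPM.

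The tissue difference was also fitted in each genotype alone. In WT mice 12 of 32 tested members passed (38% of all genes), in Ube3aOE mice 6 of 33 (26.9% of all genes), and 5 passed in both. The sign was the same in both genotypes for 29 of 32 members. A difference between the genotypes in the tissue effect was tested as an interaction, in which edgeR called 0 of 33 members and 0% of all genes. At an unadjusted *P* under 0.05 it found 0 members, against 3.77% of all genes, DESeq2 and limma voom also called 0, and the smallest adjusted *P* was 0.997 (*Asb4* had the smallest unadjusted *P*, 0.0589). *Rian*, *Zim1*, *Copg2*, *Impact* and *Inpp5f* passed in the tissue comparison under each of 23 alternatives, including either genotype alone and every mouse left out. *Nnat* passed in each but Ube3aOE mice alone.

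The study asked what a higher dose of *Ube3a* does to transcription in each tissue. No member passed the adjusted test in either tissue. edgeR called 0 of 33 in hippocampus and 0 of 32 in cortex, and of all genes it called 0.00657% and 0.00669%, which is *Ube3a* alone. The smallest adjusted *P* was 0.668 in hippocampus and 0.960 in cortex, and DESeq2 and limma voom also called 0. At an unadjusted *P* under 0.05 there were 2 members in hippocampus (7.21% of all genes) and 2 in cortex (4.44% of all genes). The log2 fold changes of Ube3aOE over WT ran from -0.28 to 1.07 in hippocampus (22 above and 11 below 0, median 0.13, against 0.0023 for all genes) and from -0.52 to 0.55 in cortex (25 above and 7 below 0, median 0.074, against 0.0033 for all genes). Of all genes, 50.7% in hippocampus and 51.4% in cortex lay above 0. The 95% interval lay within ±0.5 for 14 of 33 members in hippocampus and 19 of 32 in cortex, against 69.9% and 73.8% of all genes. The intervals of the other members reach beyond that size. The p-values measure the spread between these mice.

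**Figure D5:**
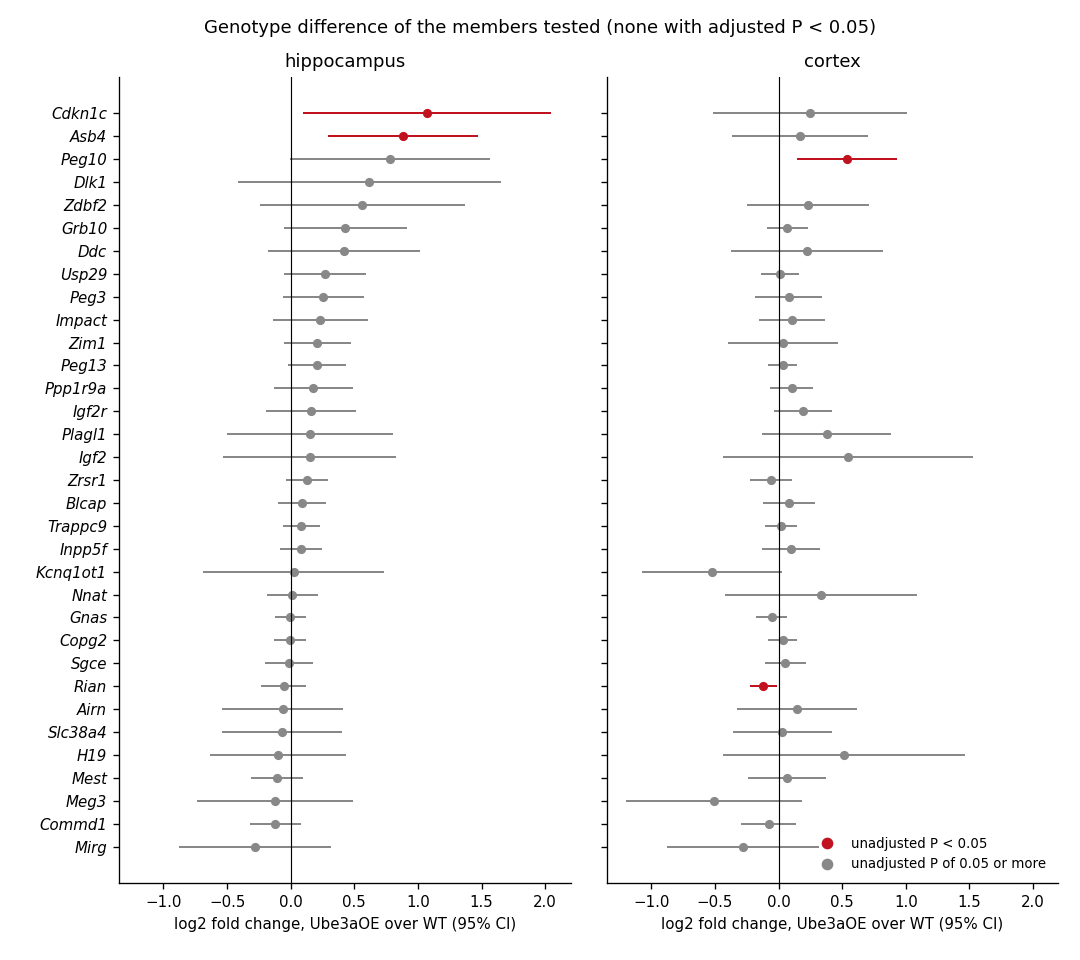
Log2 fold change of Ube3aOE over WT with 95% confidence intervals for the members tested in hippocampus (33) and cortex (32); red marks an unadjusted *P* under 0.05 and no member passed the adjusted test. *Asb4* and *Cdkn1c* in hippocampus, and *Peg10* and *Rian* in cortex, are the marked genes, at 0.88, 1.07, 0.54 and -0.12.

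In hippocampus, *Asb4* was 0.823, 0.616, 0.865, 0.806 and 0.813 CPM in WT mice and 0.959, 1.33, 1.19, 2.44 and 1.38 CPM in Ube3aOE mice. Every Ube3aOE library lay above every WT library (log2 fold change 0.88 ± 0.27 (SE), 95% CI 0.30 to 1.46, unadjusted *P* = 0.00592 and adjusted *P* = 0.668 by edgeR; two-sided exact permutation *P* = 0.00794, the smallest that 5 against 5 mice can give). Genotypes without overlap in hippocampus were found for 1 of 33 tested members, against 1.13% of all genes. The values of *Asb4* are at most 38 counts a library, and mouse 9 is highest, without which the log2 fold change was 0.63 (unadjusted *P* = 0.0168 by edgeR). The lowest Ube3aOE library, mouse 6, held 16 counts of *Asb4*, against 14 in the highest WT library, mouse 3. All other Ube3aOE hippocampus libraries are among the 5 marked ones, and the part of neighbouring tissue in this difference was not tested. *Cdkn1c*, given above by library, was higher in Ube3aOE hippocampus with overlap (log2 fold change 1.07 ± 0.43 (SE), 95% CI 0.11 to 2.04, unadjusted *P* = 0.033 and adjusted *P* = 0.668 by edgeR; exact permutation *P* = 0.0714). The 5 marked hippocampus libraries are 1 of the 5 WT and 4 of the 5 Ube3aOE libraries, and the values of *Cdkn1c* divide along that line: the WT library among them held 14.6 CPM and the Ube3aOE library outside them 5.93. Such a division held for 1 of the 33 tested members, near the share of all genes (3.17%), in a split made after the values were seen. Among the marked libraries the 5 thalamic and habenular markers summed to 311 CPM in WT mouse 4 and to 379, 117, 56.3 and 699 CPM in Ube3aOE mice 7, 8, 9 and 10. In the other 5 hippocampus libraries they summed to 55.9 to 79.0 CPM. Mouse 9, with 17.3 CPM of *Cdkn1c*, thus lay within the range of the unmarked libraries for these markers. The part of these markers in the difference of *Cdkn1c* was not tested.

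In cortex, *Peg10* was 26.4, 21.0, 24.9, 25.4 and 28.6 CPM in WT mice and 30.3, 27.1, 56.4, 35.3 and 34.6 CPM in Ube3aOE mice. The highest Ube3aOE value was in mouse 8, and the groups overlapped at mice 5 and 7 (log2 fold change 0.54 ± 0.18 (SE), 95% CI 0.15 to 0.93, unadjusted *P* = 0.0103 and adjusted *P* = 0.96 by edgeR; exact permutation *P* = 0.0159). Without mouse 8 the log2 fold change of *Peg10* was 0.33 (unadjusted *P* = 0.00571 by edgeR). In hippocampus *Peg10* was 26.9, 24.5, 18.8, 17.5 and 15.0 CPM in WT mice and 22.8, 24.4, 29.1, 72.9 and 27.3 CPM in Ube3aOE mice, with 1 high library in mouse 9 and an unadjusted *P* of 0.0503. *Rian* was 989, 1067, 1047, 1054 and 978 CPM in WT cortex and 937, 967, 950.1, 904 and 964 CPM in Ube3aOE cortex. All WT libraries lay above all Ube3aOE libraries, and the difference was small (log2 fold change -0.12 ± 0.046 (SE), 95% CI -0.22 to -0.021, unadjusted *P* = 0.0207 and adjusted *P* = 0.96 by edgeR; exact permutation *P* = 0.00794). Genotypes without overlap in cortex were found for 1 of 32 tested members, against 0.702% of all genes. In hippocampus the log2 fold change of *Rian* was -0.057 (unadjusted *P* = 0.473). Each of the changes named in these tissues failed the adjustment over all genes.

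Single libraries carried many of the highest values. The hippocampus library of Ube3aOE mouse 9 was the highest of 10 for 15 of 33 tested members, against 11.1% of all genes. There *Peg10* was 72.9 CPM (median of the other 9, 24.4), *Zdbf2* 31.6 (11.8), *Plagl1* 37.8 (19.8), *Ddc* 6.61 (2.78) and *Dlk1* 3.59 (0.865). In this library the hippocampal markers summed to 609 CPM, against 741 to 923 in the other 9, and 5 genes of basal forebrain and hypothalamus, a list added after the values were seen, summed to 23.0 CPM, against 0.308 to 3.21. The cortex library of Ube3aOE mouse 8 was the highest of 10 for 16 of 33 members, against 17.7% of all genes. Its neocortical markers summed to 496 CPM, against 571 to 813 in the other 9. The part of neighbouring tissue in these levels was not tested.

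The spread between mice of a group differed widely between members. Averaged over the 4 groups, the coefficient of variation was 66.9% for *Dlk1*, 46.8% for *Cdkn1c*, 39.0% for *H19*, 38.7% for *Igf2*, 34.5% for *Mirg* and 34.4% for *Meg3*. It was 5.84% for *Rian*, 5.37% for *Trappc9*, 4.13% for *Gnas* and 4.00% for *Copg2*. *Copg2* and *Dlk1* thus stood at the ends of the 33 tested members, and *Dlk1* is also the lowest in counts of those named.

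The other genes of the pathways were counted by list, beside 25.3% higher and 25.6% lower of all genes between the tissues. Of 27 tested genes in or beside the imprinted domains, 7 were higher and 11 lower in hippocampus (median -0.096). The Ras exchange factor gene *Rasgrf1* rose most (log2 fold change 1.34, adjusted *P* = 1.82e-05), followed by *Osbpl5* (0.41, adjusted *P* = 9.10e-05) and *Nap1l5* (0.40, adjusted *P* = 0.00243), and the cation transporter gene *Slc22a3* beside *Igf2r* was the lowest (-1.52, adjusted *P* = 5.75e-07), before *Gpr1* (-1.45, adjusted *P* = 0.000991) and *Slc22a2* (-1.31, adjusted *P* = 0.0397). Of 16 tested genes of the insulin-like growth factor pathway, 6 were higher and 4 lower (median 0.062). The IGF binding protein protease gene *Pappa* rose most (log2 fold change 3.41, adjusted *P* = 1.01e-06), with its inhibitor gene *Stc2* (0.89, adjusted *P* = 4.24e-05) and *Igf1* (0.79, adjusted *P* = 7.90e-06), while *Igfbp6* (-1.12, adjusted *P* = 0.0237), the mRNA binding protein gene *Igf2bp2* (-0.76, adjusted *P* = 0.00014) and the receptor gene *Igf1r* (-0.61, adjusted *P* = 5.54e-09) were lower. Of 16 tested genes that keep or remove imprints, 1 was higher and 4 were lower (median -0.043). *Uhrf1*, which brings DNMT1 to newly copied DNA, was higher (log2 fold change 1.10, adjusted *P* = 3.50e-08), and *Zfp57* (-0.50, adjusted *P* = 0.00119) and the demethylase genes *Tet3* (-0.34, adjusted *P* = 1.61e-05) and *Tet2* (-0.30, adjusted *P* = 0.00257) were lower. In the comparison of genotypes edgeR called none of these genes in either tissue. At an unadjusted *P* under 0.05 in hippocampus there were 0 of 23 tested neighbours, 1 of 16 growth factor genes and 1 of 16 imprint genes, against 7.21% of all genes. In cortex there were 0 of 26, 2 of 14 and 1 of 16, against 4.44% of all genes.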

How the data were processed

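Poly(A) RNA of cortex and hippocampus from 5 WT and 5 Ube3aOE pups was sequenced with a stranded mRNA kit, 20 libraries in all. The authors deposited whole-number read counts per gene, not normalized, for 47729 genes; the submitters' processing notes name HISAT2 2.1.0, HTSeq 0.11.2 and GRCm38 (mm10), and the strand setting of the counting is not given in the sources used here. Reads that no gene received (18.8% to 30.3% of a library) were left out of library totals and tests. Groups, mouse numbers and tissue came from the labels. Positions and exon lengths came from GENCODE M21 (47224 identifiers matched), and promoters and microRNAs from RefSeq tables on GRCm38.p6.

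Counts were tested with edgeR 4.0.16 (R 4.3.3; TMM, filterByExpr, robust quasi-likelihood *F* test) and Benjamini-Hochberg adjustment over all genes that passed the filter, at a threshold of 0.05. The tissues were compared in 1 fit to all 20 libraries, and the genotypes within the 10 libraries of a tissue. CPM used TMM factors. Correlations were taken on log2 CPM (prior count 2), with 100000 resamples, over 28 computed of 30 listed relations, adjusted together; 2 with *Nespas* were left out, and 4 relations of *Meg3* were added after the values were seen. Exact permutation tests were two-sided. The 2 tissues of a number came from the same mouse by the labels. Within groups, the libraries of a mouse deviated together with a median correlation of 0.215 over genes (-0.037 to 0.248; above 0.1 in 9 of 10 mice), so the mouse as a block pairs them.

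Alternatives were DESeq2 1.42.0, limma 3.58.1 voom, other size factors (RLE), no filter, the mouse as a block, all 20 libraries in 1 genotype fit, sex as a covariate, each genotype alone and each mouse left out. Leaving out the libraries with markers of neighbouring tissue was chosen after seeing the data. Every member was named for the tissue comparison, and for genotype those with an unadjusted *P* under 0.05 or without overlap; from the other lists (imprinted domain neighbours, insulin-like growth factor genes, imprint maintenance genes) up to 3 in each direction. Marker lists covered choroid plexus, meninges and fibroblasts, blood vessels, striatum, thalamus and habenula, blood, hippocampus and neocortex. Between tissues edgeR called 6 of 10 tested choroid plexus markers higher, 5 of 10 meningeal markers lower, 2 striatal markers higher and 2 lower of 7, 3 of 4 thalamic markers higher, and none of 5 blood and 6 vessel markers (0 at an unadjusted *P* under 0.05); a list of basal forebrain and hypothalamus genes was added after the values were seen, with 1 of 2 tested higher. Members and lists were chosen with earlier results of these data known. The fits were tested on simulated counts with known changes. Figures were drawn with Python 3.11.15 and matplotlib 3.10.9.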

Additional observations from a re-analysis of the deposited data

Results flagged for a closer look

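In a group of 5 mice, a library was singled out where its distance to the nearest other library exceeded 0.71 of the whole range of the group (Dixon's test at 95%). This held in 16 of 132 groups of a member (12.1%), spread over 11 members, against 6.32% of the 64000 groups of all genes with as many counts; chance alone gives about 1 in 20 groups.

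Of the 16, 7 were in Ube3aOE hippocampus, and 4 of these were in mouse 9: *Dlk1* at 3.59 CPM (the other 4 mice 0.773 to 1.21), *Peg10* at 72.9 (22.8 to 29.1), *Asb4* at 2.44 (0.959 to 1.38) and *Calcr* at 2.69 (0 to 0.239). The others in that group were *Mest* at 30.2 CPM (22.3 to 23.4) and *Slc38a4* at 3.99 (2.22 to 2.57), both in mouse 7, and *Igf2r* at 33.3 (the highest of the other 4, 23.4) in mouse 6. The hippocampus library of mouse 9 also held the highest sums of striatal markers and of basal forebrain and hypothalamus genes, and their part was not tested.

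In WT cortex, *Cdkn1c* was 21.2 CPM in mouse 2 (8.10 to 10.4 in the other 4), *Grb10* 45.1 in mouse 2 (52.9 to 56.0), *Asb4* 1.05 in mouse 5 (0.668 to 0.773), *Mest* 26.8 in mouse 3 (18.0 to 20.3) and *Airn* 2.36 in mouse 4 (1.34 to 1.55). The cortex library of WT mouse 2 had the lowest total and the highest share of reads not aligned, 8.66%. In WT hippocampus, *Cdkn1c* was 14.6 CPM in mouse 4 (5.41 to 7.57), *Trappc9* 65.1 in mouse 4 (72.4 to 74.4) and *Asb4* 0.616 in mouse 2 (0.806 to 0.865). In Ube3aOE cortex, *Peg10* was 56.4 CPM in mouse 8 (27.1 to 35.3).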

How the results depend on the processing

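Of 17 members called between the tissues, DESeq2 gave 18, limma voom 17, RLE size factors 17 and no filter on low counts 15; leaving out 1 mouse gave 13 to 19. Of all genes, 50.9% were called, 51.3%, 51.0%, 50.8% and 27.5% in these 4 alternatives and 46.3% to 50.6% without a mouse. WT mice alone gave 12 (38% of all genes), Ube3aOE mice alone 6 (26.9%) and Ube3aOE mice alone with the replicate block 10 (32.4%), where fewer libraries entered. The fit without the 5 marked hippocampus libraries kept 1 Ube3aOE hippocampus library. Its hippocampus side thus rests mainly on WT mice, which limits what the count of passes given for it in the Results shows. The mouse as a replicate block gave 21 (55.8%), with the 17 among them, and added *Meg3*, *Blcap*, *Igf2r* and *Zdbf2*; it left the interaction count at 0. No paired analysis was possible for the genotypes because mice 1 to 5 and 6 to 10 share no numbers. In hippocampus, the 2 members at an unadjusted *P* under 0.05 (7.21% of all genes) became 4 with DESeq2 (7.76%), 6 with all 20 libraries in 1 fit (9.95%), 1 with limma voom (7.04%) and 1 to 9 with a mouse left out (4.16% to 12.5%). In cortex, the 2 (4.44%) became 0 with all 20 libraries in 1 fit (4.35%) and 1 to 6 with a mouse left out (2.74% to 7.60%). The adjusted counts of genotype and interaction were 0 under every alternative. Of the 7 correlations that passed by *r*, 4 passed without the 2 mice farthest from the median.

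Of 757 tissue differences of single members under alternatives, 673 kept direction and side of the threshold, 55 no longer passed, 21 newly passed and 8 changed sign, none in a called member. *Usp29* was 0.0104 in Ube3aOE mice alone, *Trappc9* -0.00045 in WT mice alone, and *Igf2r* 0.074 without the 5 marked libraries. *Cdkn1c* was 0.27 in Ube3aOE mice alone (0.19 with the block), 0.0101 without the WT mouse 2 cortex library, and from -0.39 to 0.0266 with a mouse left out (0.0171 without mouse 2). The cause of each was not tested. With 5 mice a group, low members such as *Dlk1* and *Asb4* are limited by counts of at most 56 a library.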
